A study of Mus musculus with 13 samples.

Results

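The transcripts of 7 genes for the transport of glucose and lactate across the cell membrane were followed in mouse embryonic stem (ES) cells with and without induction of a CTCF mutant. They were the glucose transporter genes Slc2a1, Slc2a3 and Slc2a8, the monocarboxylate transporter genes Slc16a1, Slc16a3 and Slc16a7, and Bsg, and they were taken by symbol from the 24421 genes counted in both replicates. The 7 genes were chosen with results of the comparison below known, so their changes are given as a description and not as a test of the group. All 7 were among the 20044 genes with at least 1 count in 1 library, and 6 of them, all but Slc16a7, were among the 13911 genes that averaged at least 1 CPM (counts per 1000000 reads).

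Glucose enters mammalian cells mainly by facilitated diffusion through GLUT proteins, which Slc2a genes encode. Cells that ferment glucose to lactate export the lactate with a proton through monocarboxylate transporters (MCTs), which Slc16a genes encode and which need a glycoprotein partner, usually basigin (Bsg), to reach the plasma membrane. Pluripotent stem cells are known for high rates of glycolysis, and GLUT1, GLUT3 and MCT4 (the products of Slc2a1, Slc2a3 and Slc16a3) are textbook targets of the hypoxia-inducible factors.

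The cells were clone A2 of F1-2.1, a female ES cell line of the strain background CAST/Ei x 129/Sv/Jae, with the genotype Tet-on CTCF S224E: doxycycline (dox) switches on a transgene that makes CTCF with glutamic acid in place of a serine (S224E), together with EGFP. Polyadenylated RNA was sequenced from 2 libraries of cells given 1 μg/mL dox for 6 days (+dox) and 2 libraries of the same clone without dox (−dox). All 4 came from cultures over irradiated mouse fibroblast feeders and kept their own CTCF genes, and all stem from this single clone. RNA of cells given dox without this transgene was not analysed here, so dox, EGFP and CTCF S224E cannot be told apart.

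The libraries held between 22899107 and 30206085 counted reads. Ctcf itself was at 327 and 329 CPM with dox and at 295 and 304 CPM without, a difference that edgeR did not call (adjusted p = 0.475). The paper reported that a minority of RNA reads over the mutated codon encoded glutamic acid, and took the mutant as present at a modest level. Reads over that codon were not examined here. The 8 ES cell markers, among them Pou5f1 and Nanog, summed to 5119 and 5921 CPM with dox and to 4652 and 5094 CPM without. The labelled cell type was thus borne out by its markers, though both +dox sums lay above both −dox sums. edgeR and DESeq2 called 0 of the 8. With edgeR 4 had an unadjusted p under 0.05, Tfcp2l1 lower and the rest higher, beside 23.3% of all genes averaging at least 1 CPM. The 12 feeder fibroblast markers summed to 785 CPM in +dox replicate 1, which stood apart, and to 313 CPM in +dox replicate 2, against 224.5 and 223.5 CPM without dox. Of these 12 genes, 11 were higher in both +dox libraries than in both −dox libraries. The share of all genes with this order is not given here. Their median log2 fold change was 1.39, beside 0.0072 over all genes tested. edgeR and DESeq2 called 0 of the 12. With edgeR 10 had an unadjusted p under 0.05, beside 17.8% of all genes tested. The lowest of the 12 was Lum, at no more than 0.533 CPM. The 6 primitive streak markers moved the other way, from 127 and 147 CPM without dox to 27.4 and 29.3 CPM with dox, and edgeR called 4 of them lower. The 6 primitive endoderm markers summed to 39.4 and 43.0 CPM with dox and 59.6 and 67.5 CPM without, and edgeR called 3 of them lower, among them Foxa2 (log2 fold change −2.79) and Sox17 (−2.57). The 4 neural markers summed to 182 and 186 CPM with dox and 170 and 131 CPM without, and edgeR called 1 of them, Pax6, higher (log2 fold change 1.09). Beside these marker calls, edgeR called 0.519% of all genes tested lower and 0.0798% higher. The part of these other cell types in the changes below was not tested, and in bulk RNA fewer cells of a type and less RNA per cell cannot be told apart.

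Promoter windows were read for the 4 of 7 genes that matched RefSeq's table (GRCm38.p6), from 250 bases before to 50 bases after the annotated start. They are shown because they belong to the gene with the largest decrease, Slc16a3, and to transporters of both families with smaller log2 fold changes. Capitals mark every match, on either strand, to ACGTG or GCGTG (the core of the hypoxia response element, read as CACGT and CACGC on the other strand) or to the E-box CACGTG, which itself holds ACGTG on both strands. Each window runs 5′ to 3′ on the strand of its gene.
Slc2a1, chr4:119108495-119108794, plus strand: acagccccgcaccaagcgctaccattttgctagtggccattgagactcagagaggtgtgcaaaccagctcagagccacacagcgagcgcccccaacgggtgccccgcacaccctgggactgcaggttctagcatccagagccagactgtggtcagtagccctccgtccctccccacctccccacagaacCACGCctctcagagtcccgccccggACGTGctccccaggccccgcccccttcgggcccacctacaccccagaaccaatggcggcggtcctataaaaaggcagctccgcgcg
Slc2a8, chr2:32982034-32982333, minus strand: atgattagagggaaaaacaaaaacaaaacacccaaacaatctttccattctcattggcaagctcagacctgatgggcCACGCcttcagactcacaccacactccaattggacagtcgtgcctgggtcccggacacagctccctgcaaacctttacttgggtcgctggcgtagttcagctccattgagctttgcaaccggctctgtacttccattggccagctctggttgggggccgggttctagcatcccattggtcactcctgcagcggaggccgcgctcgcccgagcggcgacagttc
Slc16a1, chr3:104638414-104638713, plus strand: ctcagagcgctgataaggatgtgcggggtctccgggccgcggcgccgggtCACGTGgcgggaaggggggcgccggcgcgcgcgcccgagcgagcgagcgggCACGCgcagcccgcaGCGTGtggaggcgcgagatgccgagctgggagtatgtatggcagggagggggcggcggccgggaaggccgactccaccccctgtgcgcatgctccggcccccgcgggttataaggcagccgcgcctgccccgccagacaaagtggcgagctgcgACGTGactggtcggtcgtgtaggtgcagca
Slc16a3, chr11:120948817-120949116, plus strand: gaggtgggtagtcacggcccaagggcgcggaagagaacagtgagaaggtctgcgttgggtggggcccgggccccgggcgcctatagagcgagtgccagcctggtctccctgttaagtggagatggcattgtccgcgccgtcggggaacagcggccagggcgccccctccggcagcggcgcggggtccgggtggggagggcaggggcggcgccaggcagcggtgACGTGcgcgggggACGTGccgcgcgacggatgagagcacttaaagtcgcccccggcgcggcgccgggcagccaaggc

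All 4 windows held at least 1 core, as did 43.8% of the 32851 promoter windows of the same length. G and C made up 65.3% (Slc2a1), 55.7% (Slc2a8), 73.7% (Slc16a1) and 73.3% (Slc16a3) of the windows, beside a median of 52.7%. Both cores hold a CG and the 43.8% is not matched for G and C, so nothing is read from this comparison. ACGTG alone was in 19.6% of all windows and GCGTG in 32.4%. Slc16a3, which had the largest decrease of the 7 genes, carried ACGTG 2 times, at 27 and 14 bases before the start. Slc2a1 carried ACGTG at 36 bases before the start and GCGTG, on the other strand, at 61 bases before it. Slc16a1 had 5 matches, and those that begin 200 and 199 bases before the start are the 2 strands of a single E-box, a motif present in 7.15% of all windows. Slc2a8 carried GCGTG 1 time. A 12-base CTCF consensus, searched with no mismatch allowed, was in 0 of the 4 windows and in 0.557% of all windows. With so few matches anywhere, the 0 of 4 cannot tell whether these promoters hold CTCF sites. These are matches of letters only, and no binding was measured at them here. By exact match to mm9, the windows of Slc2a1, Slc16a1 and Slc16a3 start from the same base as the counted transcripts, and that of Slc2a8 from a base 27 away.

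The main comparison asked how the transcripts differed after 6 days with dox. Slc2a1, Slc2a3, Slc16a1 and Slc16a3 had less RNA with dox in both replicates. Slc2a8 was lower by less and was not called, Slc16a7 had too few reads to tell, and the partner gene Bsg was level. The 7 genes together took 0.181% and 0.193% of the counted reads of the +dox libraries and 0.267% and 0.325% of those of the −dox libraries. edgeR called Slc16a3 and Slc2a3 lower at an adjusted p under 0.01, which is 2 of the 7, beside 0.519% of all genes tested called lower. It called 0 of the 7 higher, beside 0.0798% of all genes. With edgeR 4 of the 7 had an unadjusted p under 0.05, all of them lower, beside 17.8% of all genes in either direction. DESeq2 called 4 of the 7 lower, adding Slc2a1 and Slc16a1, beside 1.28% of all genes, and 0 higher, beside 0.589%. In 5 of the 7 both +dox values lay under both −dox values, which held for 23.7% of all genes. The median log2 fold change of the 7 was −0.43, beside 0.0072 over all genes tested. Since the genes were chosen on this contrast, nothing is read from these shares. Levels in CPM are scaled to library size by edgeR's TMM factors.

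**Figure D1:**
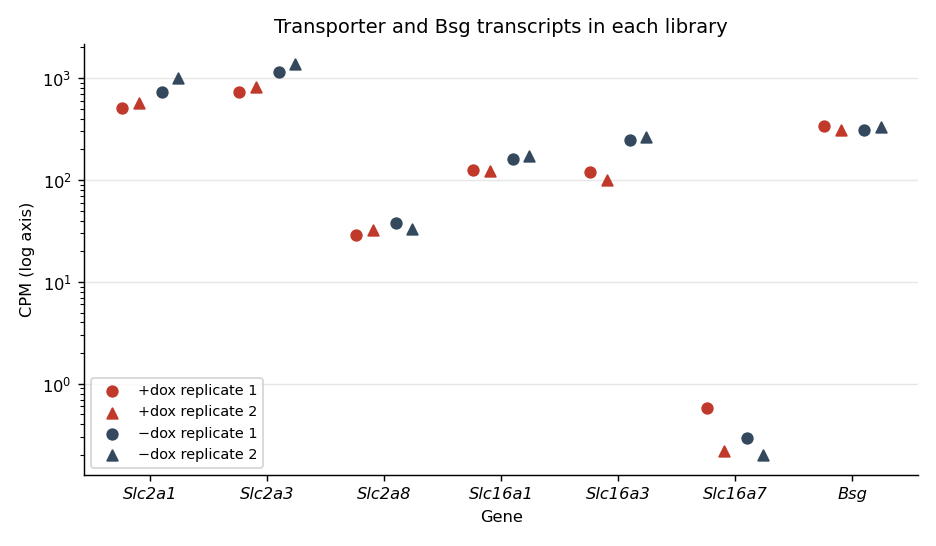
CPM (log axis) of the 7 genes in the 4 libraries. Red symbols are +dox, dark symbols −dox, circles replicate 1 and triangles replicate 2. The +dox values of Slc16a3 (118 and 101 CPM) lie under its −dox values (247 and 266 CPM), those of Bsg overlap, and Slc16a7 lies under 1 CPM in every library.

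Slc2a1 encodes GLUT1, the widely expressed carrier for basal glucose uptake, and lies at chr4:118781350-118809934 (mm9, plus strand). It was at 507 and 571 CPM in +dox replicates 1 and 2 and at 731 and 1003 CPM in −dox replicates 1 and 2. All +dox values lay below the −dox values, and the −dox libraries differed from each other more than the +dox libraries did. The log2 fold change was −0.68 ± 0.13 (SE), with −0.53 in replicate 1 alone and −0.81 in replicate 2 alone, so that −dox cells had 1.61 times the CPM of +dox cells. This was past the threshold with DESeq2 (adjusted p = 3.40e-04) but not with edgeR (adjusted p = 0.0177). An antisense gene, Gm12868, shares exon bases with Slc2a1 in GENCODE, and since use of the strand in counting is not stated, their reads cannot be told apart.

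Slc2a3 encodes GLUT3, a carrier of high glucose affinity best known from neurons and the early embryo, and lies at chr6:122677827-122692763 (minus strand). Its CPM were 728 and 825 with dox and 1153 and 1386 without. The groups did not overlap, and the gap between them was larger than the spread within either. Slc2a3 fell by 0.71 on the log2 scale (SE 0.10; edgeR adjusted p = 0.00364; DESeq2 adjusted p = 1.63e-06), and the single replicates gave −0.66 and −0.75. Of all 7 genes it had the most counted reads, up to 35205 in −dox replicate 1.

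Slc2a8 encodes GLUT8, a carrier found mostly on membranes inside the cell, and lies at chr2:32828509-32837576 (minus strand). It was at 28.7 and 32.4 CPM with dox and at 38.2 and 33.2 CPM without. The groups did not overlap, but +dox replicate 2 and −dox replicate 2 were nearly level. Its log2 fold change of −0.22 ± 0.14 (SE) was not called by edgeR (adjusted p = 0.448) or DESeq2 (adjusted p = 0.514), and came from replicate 1 (−0.41) more than from replicate 2 (−0.04).

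Slc16a3 encodes MCT4, the carrier typical of cells that export much lactate, and lies at chr11:120810381-120820314 (plus strand). It was at 118 and 101 CPM with dox and at 247 and 266 CPM without. The groups were far apart, and the values within each were close. Slc16a3 fell by 1.23 on the log2 scale (SE 0.10; edgeR adjusted p = 1.12e-04; DESeq2 adjusted p = 3.15e-20), by 1.06 in replicate 1 and by 1.40 in replicate 2. Among the 13911 genes averaging 1 CPM or more it ranked 160 from the lowest log2 fold change. In GENCODE an exon of Csnk1d, on the opposite strand, shares bases with Slc16a3. The counted Csnk1d transcript lies 2740 bases from Slc16a3. It was at 330 and 321 CPM with dox and 319 and 308 CPM without (log2 fold change 0.05). These values do not measure the shared bases. Since use of the strand in counting is not stated, reads of the 2 genes there cannot be told apart.

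Slc16a1 encodes MCT1, which carries lactate, pyruvate and ketone bodies in both directions, and lies at chr3:104442587-104462385 (plus strand). Its CPM were 125 and 121 with dox and 161 and 170 without. The groups did not overlap and the replicates of each lay within 10 CPM of each other. The log2 fold change was −0.43 ± 0.09 (SE), −0.36 and −0.49 in the single replicates, which DESeq2 called (adjusted p = 0.00588) and edgeR did not (adjusted p = 0.0325).

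Slc16a7 encodes MCT2, a carrier of high affinity for pyruvate and lactate, and lies at chr10:124664541-124765591 (minus strand). It had 13 and 5 reads with dox and 9 and 5 without, under 1 CPM in every library. The exact Poisson 95% intervals, which cover counting error only, ran from 6.92 to 22.2 for the 13 reads and from 1.62 to 11.7 for each library with 5 reads, and all 4 intervals overlap. A change of Slc16a7 was not detectable at this depth (log2 fold change 0.66 ± 0.72, SE, edgeR adjusted p = 0.704), and DESeq2 gave no adjusted p.

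Bsg encodes basigin, the chaperone and partner of MCT1 and MCT4, and lies at chr10:79167103-79174724 (plus strand). It was at 337 and 306 CPM with dox and at 312 and 333 CPM without. The groups overlapped fully, with means of 322 CPM in both. The log2 fold change was −0.0032 ± 0.091 (SE; edgeR adjusted p = 0.987; DESeq2 adjusted p = 0.996), and the single replicates had opposite signs, 0.11 and −0.12.

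**Figure D2:**
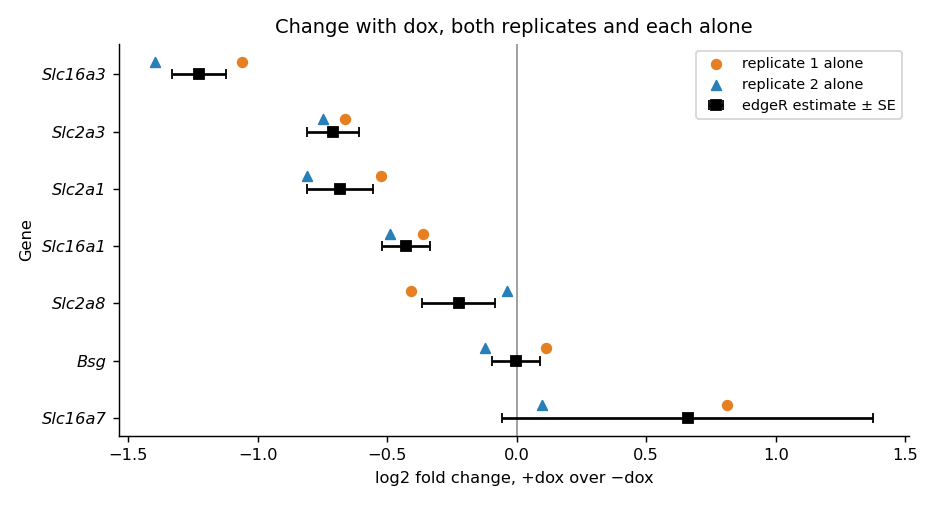
Log2 fold change of +dox over −dox for each gene. Squares with bars are the edgeR estimate ± SE from 2 libraries per condition, circles and triangles the ratio in replicate 1 and replicate 2 alone. Slc16a3, Slc2a3, Slc2a1 and Slc16a1 lie below 0 in both replicates, and the pair of Bsg lies on either side of 0.

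The values above were then taken without +dox replicate 1, the library with the most feeder marker RNA. The log2 fold changes were then −0.60 for Slc2a1, −0.62 for Slc2a3, −0.14 for Slc2a8, −0.45 for Slc16a1, −1.35 for Slc16a3 and −0.08 for Bsg. Slc16a7, with few reads, changed from 0.66 to −0.19. Without +dox replicate 2 the log2 fold changes were −0.77 for Slc2a1, −0.80 for Slc2a3, −0.40 for Slc16a1 and −1.12 for Slc16a3. In both fits the lone +dox library is assumed to vary like the −dox libraries, so nothing is read from their calls. Without −dox replicate 1 or −dox replicate 2, where the lone −dox library is assumed to vary like the others, edgeR called 0 genes in all. An unadjusted p under 0.05 was then reached by 1753 and 1450 genes, and by 4 of the 7 in each case. Slc2a1 had a log2 fold change of −0.44 without −dox replicate 2 and −0.90 without −dox replicate 1. For Slc2a3 it was −0.57 and −0.84, and for Slc16a3 −1.17 and −1.28.

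Levels of different genes were compared per length of transcript, as RPKM (CPM divided by transcript length in kilobases), with SD over 2 libraries. Without dox the order was Slc2a1 (339 ± 75.4 RPKM), Slc2a3 (322 ± 41.8), Bsg (185 ± 8.76), Slc16a3 (104 ± 5.37), Slc16a1 (37.5 ± 1.50), Slc2a8 (17.2 ± 1.70) and Slc16a7 (0.102 ± 0.0280). Slc2a1 and Slc2a3 overlapped in this order, and every later neighbour was separated by more than the range of its libraries. With dox the order was the same, but Slc2a1 (211 ± 17.7 RPKM), Slc2a3 (197 ± 17.4) and Bsg (185 ± 12.7) had come close together, and Slc2a3 overlapped with both Slc2a1 and Bsg. Slc16a3 was then at 44.4 ± 5.00 RPKM, Slc16a1 at 27.9 ± 0.640, Slc2a8 at 14.8 ± 1.24 and Slc16a7 at 0.165 ± 0.105. In the −dox libraries the RPKM of Slc2a1 and of Slc2a3 were each as high as or higher than those of 99.6% of the 20044 tested genes.

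The summed RPKM of Slc2a1, Slc2a3 and Slc2a8 was 396 and 448 with dox against 596 and 759 without. Their make-up stayed close to even between the main carriers. Slc2a1 gave 50.0% and 49.8% of the sum with dox and 47.9% and 51.6% without, and Slc2a3 gave 46.5% and 46.7% against 49.0% and 46.3%. The groups overlapped for both. Slc2a8 gave 3.50% and 3.49% with dox against 3.09% and 2.11% without.

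The lactate carriers changed in proportion as well as in sum. The summed RPKM of Slc16a1, Slc16a3 and Slc16a7 was 76.5 and 68.3 with dox against 137 and 146 without. Slc16a3 gave 62.6% and 59.8% of it with dox and 73.2% and 73.6% without. The share of Slc16a1 was larger with dox, at 37.0% and 40.1% against 26.7% and 26.3%. Its own level was lower with dox (mean 27.9 against 37.5 RPKM), but by less than that of Slc16a3. The ratio of Slc16a3 to Slc16a1 RPKM was 1.69 and 1.49 with dox and 2.75 and 2.79 without. Bsg, level between the groups, stood at 2.53 and 2.57 times the summed RPKM of the 3 carriers with dox and at 1.31 times in both −dox libraries. With 2 libraries against 2 an exact test of a single ratio cannot reach 0.05, so no p is given.

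**Figure D3:**
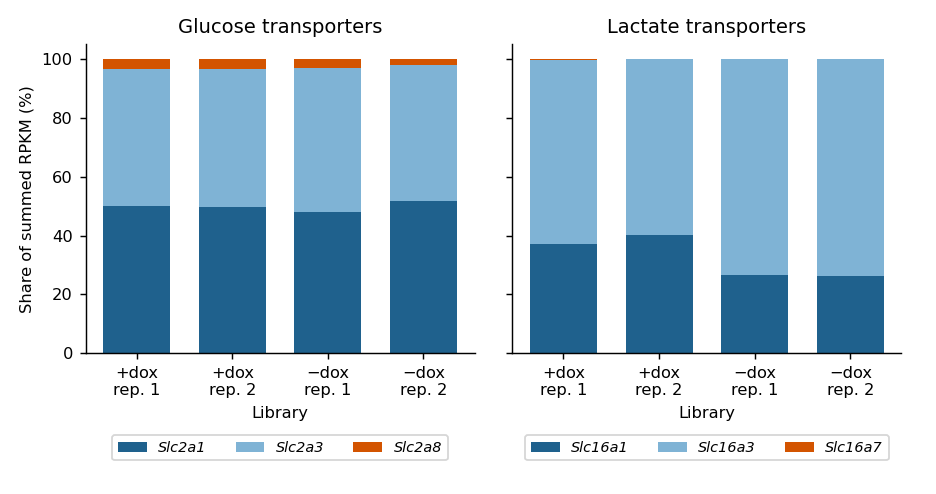
Share (%) of each gene in the summed RPKM of the 3 glucose transporters and of the 3 lactate transporters, 1 bar per library. The glucose transporter bars look alike in all 4 libraries, whereas Slc16a3 gives 62.6% and 59.8% of its bar with dox and 73.2% and 73.6% without.

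The remaining glucose transporters were scarce in these cells. Of 15 further facilitative (Slc2a) and sodium-coupled (Slc5a) carriers, 13 had reads and 5 averaged 1 CPM or more, and their sum was 17.3 and 16.7 CPM with dox and 18.7 CPM in both −dox libraries. The 2 without reads, Slc2a2 and Slc5a4a, could have been at up to 0.133 CPM in the smallest library, the limit that 0 reads allow. edgeR called 0 of the 13, with 2 at an unadjusted p under 0.05, beside 17.8% of all genes tested, and DESeq2 called 0. Slc2a7, a carrier of the intestine, and Slc2a5, the fructose carrier GLUT5, had the highest RPKM of the list. Slc2a7 was at 1.56 and 1.85 RPKM with dox and 1.74 and 2.44 RPKM without, and Slc2a5 at 0.822 and 1.01 RPKM with dox and 1.36 and 1.46 RPKM without (log2 fold change −0.62, edgeR adjusted p = 0.225).

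Of 17 other monocarboxylate carriers and their partners, 10 averaged 1 CPM or more and edgeR and DESeq2 both called only Emb, lower with dox. Over all genes tested, edgeR called 0.519% lower and DESeq2 1.28%. Emb encodes embigin, a relative of basigin that serves as partner of MCT2 and can also bind MCT1. It was at 90.3 and 90.4 CPM with dox and at 141 and 149 CPM without. The values within each group were close, and Emb fell by 0.68 on the log2 scale (SE 0.10; edgeR adjusted p = 0.00332). Nptn, the third gene of the basigin family, was at 59.0 and 51.8 CPM with dox and 48.5 and 53.2 CPM without (log2 fold change 0.12, edgeR adjusted p = 0.667). The list's median log2 fold change was −0.23, beside 0.0072 over all genes, with 11 of the 17 values negative and the rest positive.

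The enzymes that turn the imported glucose into lactate were lower in part. Of 19 genes, counting Pdk1, which restrains pyruvate entry into the mitochondrial cycle, edgeR called 4 lower, beside 0.519% of all genes, and 0 higher. All 19 averaged at least 1 CPM, whereas the shares of all genes given here also cover genes under 1 CPM. The log2 fold changes were −1.59 for Aldoc (5.91 and 5.69 against 16.9 and 18.1 CPM), −1.25 for Eno2, −0.75 for Pdk1 and −0.58 for Tpi1. DESeq2 called 6 lower, beside 1.28% of all genes, adding Pfkl (−0.47) and Ldhb (−0.51). The list's median was −0.32, beside 0.0072 over all genes, and 17 of 19 values were negative, including those not called. Pkm and Aldoa, the most abundant of the list per length, had log2 fold changes of −0.03 and −0.26 and were not called. Gapdh, Pgk1, Pgam1 and Eno1 have many pseudogene copies, so counts of unique reads are uncertain for them.

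Among 13 regulators of transporter abundance, edgeR called 0. With edgeR 5 had an unadjusted p under 0.05, beside 23.3% of all genes averaging at least 1 CPM. DESeq2 called 1, Epas1, higher with dox, beside 0.589% of all genes, a share that also covers genes under 1 CPM. Epas1, which encodes the hypoxia-inducible factor HIF-2α, was at 216 and 228 CPM with dox and 146 and 168 CPM without (log2 fold change 0.50, edgeR adjusted p = 0.0221). Hif1a, whose product HIF-1α is controlled mainly as protein, was at 228 and 186 CPM with dox and 236 and 229 CPM without. Mycn and Txnip had the highest RPKM of this list. Txnip, whose product draws GLUT1 from the membrane, was at 518 and 729 CPM with dox and 535 and 725 CPM without, the same order of replicates in both groups. Mycn had a log2 fold change of 0.20 (edgeR adjusted p = 0.299).

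**Figure D4:**
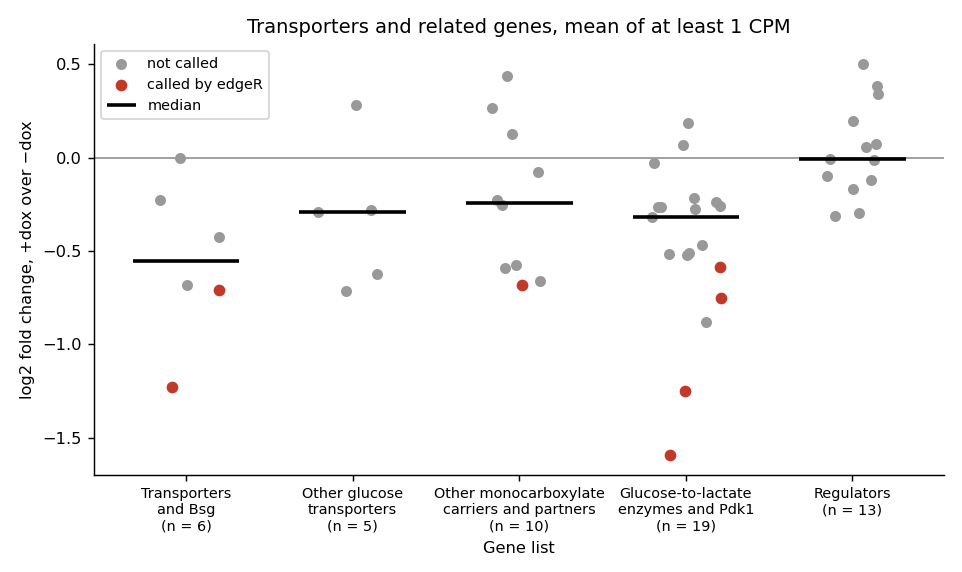
Log2 fold change of +dox over −dox for the genes averaging at least 1 CPM in each list. Each point is a gene, red where edgeR called it, and bars are medians. The glucose-to-lactate enzymes have a median of −0.32, and the regulators lie on both sides of 0.

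The 7 genes lie on 6 chromosomes. Within 500 kb of them lay 130 other genes averaging at least 1 CPM. edgeR called 0 of these, and DESeq2 called 4, all higher with dox, beside 0.589% of all genes called higher by DESeq2. The shares called are over all genes tested, including those under 1 CPM. With so few genes called lower overall (0.519% by edgeR and 1.28% by DESeq2), the 0 called lower here is near the background. An unadjusted p under 0.05 in edgeR was reached by 37 of the 130, or 28.5%, beside 23.3% of all genes of that level. The genes named here were chosen after their values were seen. Slc2a3 lies 13175 bases from Nanog, a pluripotency factor, which was at 499 and 688 CPM with dox and 521 and 598 CPM without. The 11 neighbours of Slc2a3 had a median log2 fold change of 0.09, the lowest being −0.21, against −0.71 for Slc2a3 itself. One of them, Gdf3, a TGF-β family ligand of ES cells, was called higher by DESeq2 (268 and 290 CPM against 199 and 190 CPM, log2 fold change 0.52, edgeR adjusted p = 0.0132). Slc16a3 had 38 neighbours with a median of 0.09. The lowest of them was Cd7, at under 2 CPM in every library (log2 fold change −0.96, edgeR adjusted p = 0.225), and DESeq2 called Tex19.1 higher (log2 fold change 0.52, edgeR adjusted p = 0.0169).

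**Figure D5:**
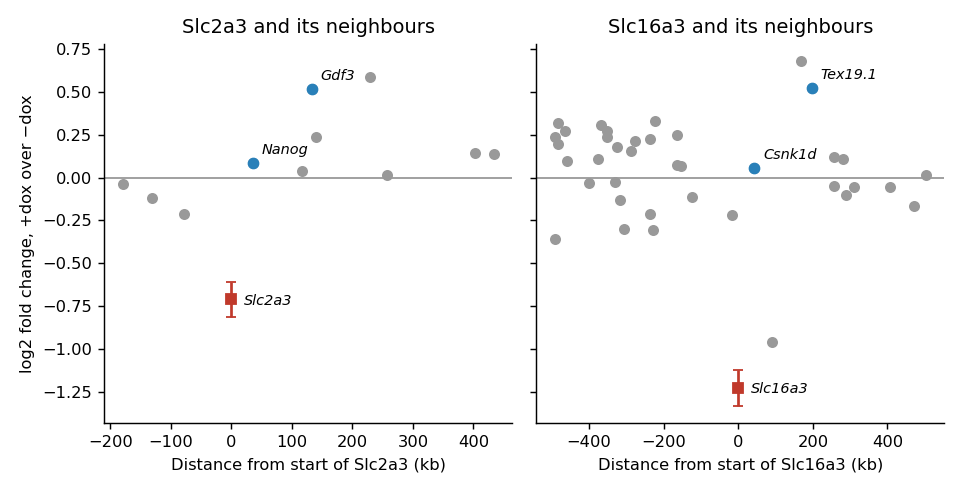
Log2 fold change of +dox over −dox for genes averaging at least 1 CPM within 500 kb of Slc2a3 and Slc16a3, by distance between start sites (kb, negative upstream). Red squares with SE are Slc2a3 and Slc16a3, blue points the named neighbours and grey points the others. Slc2a3 lies below all of its 11 neighbours, and Slc16a3 below all of its 38. Both were chosen with their decreases known, so nothing is read from this order.

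Genes with the most similar pattern were sought over the 4 libraries by the Euclidean distance between log2 CPM centred on each gene's mean, among 9969 genes averaging at least 10 CPM. Nearest to Slc16a3 were Soat1 (distance 0.0698), Bnip3 (0.117) and Ly75 (0.121). Soat1 makes cholesterol esters and Bnip3 is a mitochondrial mitophagy receptor, and Bnip3 was at 15.5 and 13.4 CPM with dox and 33.6 and 38.8 CPM without. Among the genes nearest to Slc2a3 were Sccpdh (0.0636) and Bahcc1 (0.0689), and Bahcc1 was at 45.5 and 51.5 CPM with dox and 69.9 and 81.9 CPM without. Nearest to Bsg were C77080 (0.0138), Eif2ak3 (0.0205), a kinase of the unfolded protein response, and Ccdc85b (0.0226), none of which edgeR called. With 4 libraries many genes can share a pattern, and these names describe likeness only.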

How the data were processed

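Polyadenylated RNA of clone A2 was sequenced from 2 +dox and 2 −dox cultures. According to the methods and labels, the authors used cutadapt for trimming and TopHat2 for alignment (mm9), discarded PCR duplicates, and tabulated unique exonic reads per gene in HOMER. The deposited values are raw counts, not normalized, in 1 table per replicate with the transcript length. Tool versions and use of the strand are not given in the sources used here. Tables were joined by symbol, since 547 genes, none of them of the 7, have another transcript in the replicate 2 table. Genes with at least 1 count in 1 library (20044) were tested with edgeR 4.0.16 (quasi-likelihood test, TMM, package defaults, no replicate block, R 4.3.3), with Benjamini-Hochberg adjustment and a threshold of 0.01. DESeq2 1.42.0 (Wald test), the study's tool, was an alternative. Log2 ratios of single replicates used a prior count of 2. RPKM used TMM library sizes. Replicates are described as biological, and p-values measure the spread between these libraries.

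The 7 genes, the gene lists and the markers were chosen with earlier results of these data known, so no list was tested as a set. Named from the lists were genes called by edgeR or DESeq2 and the 2 with the highest RPKM. For each of Slc2a3, Slc16a3 and Bsg the 3 genes of nearest pattern were sought, of which 1 is not reported here. GENCODE M1 (NCBIM37) gave overlapping exons. ChIP-seq and Hi-C samples were not analysed here. Alternatives were a replicate block, adjusted deviances, other scaling and filters, a threshold of 0.05 and leaving out each library.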

Additional observations from a re-analysis of the deposited data

How the results depend on the processing

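edgeR called 120 genes, and 375 were called by DESeq2, 573 at a threshold of 0.05, 11 with filterByExpr and 0 with adjusted deviances (3254 at an unadjusted p under 0.05). With the replicate block it called 786. The correlation of the deviations of same-numbered libraries was 0.196, and the labels do not say what a number shares, so the pairing is not established. Leaving out each library gave between 0 and 992 calls, with 0 without −dox replicate 1 or 2, 992 without +dox replicate 1 and 877 without +dox replicate 2.

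Of the 7 genes, 2 were called, against 4 with DESeq2, with the replicate block or at 0.05, 1 (Slc16a3) with filterByExpr, 0 with adjusted deviances and between 0 and 4 leaving out libraries. For the other monocarboxylate genes the count of 1 became 2 with the block, 0 with adjusted deviances or filterByExpr, and 0 to 2 without a library. For the enzymes 4 became 7 with the block, 0 with adjusted deviances or filterByExpr, and 0 to 7 without a library. For the regulators 0 became 1 with DESeq2, the block or a threshold of 0.05, and 0 to 2 without a library. The causes were not tested.

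Slc2a1, Slc2a3, Slc2a8, Slc16a1 and Slc16a3 kept a negative log2 fold change under every alternative run. Bsg, at −0.0032, became 0.0023 with DESeq2, 0.0023 with DESeq2's size factors and 6.2e-06 with filterByExpr, and ranged from −0.076 to 0.065 without a library. Slc16a7 ranged from −0.19 to 1.19. The Slc2a1 share of glucose transporter RPKM (with dox minus without, 0.16 percentage points) ranged from −1.71 without −dox replicate 1 to 2.03. Scaling by total counts or by DESeq2's size factors moved the median of all genes by under 0.1 on the log2 scale. At 5 to 13 reads, depth limits Slc16a7.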
